A study of Sus scrofa with 16 samples.

Results

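The regions described here were stretches of the pig genome that were accessible in newborn heart and newborn lung and that carried no peak in kidney, skeletal muscle, spleen or liver of the same age. They were selected on the peak calls themselves. The peaks of the 6 newborn tissues on chromosomes 1 to 18 were pooled, overlapping intervals were merged into 243693 union regions, and a region was kept when it was overlapped by a heart peak and a lung peak and by no peak of the other 4 tissues. This left 1301 regions, or 0.534% of all union regions, a share fixed by the rule. They held 1326 heart peaks and 1319 lung peaks and covered 867 kb. A further 35165 regions had heart and lung peaks together with a peak of at least 1 excluded tissue, so the 1301 made up 3.57% of the regions with both.

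Chromatin accessibility was measured by ATAC-seq, in which a transposase inserts sequencing adapters into DNA that is not covered by nucleosomes, so that accessible promoters and enhancers appear as peaks of reads. The heart is built mainly of cardiomyocytes and the lung of airway and alveolar epithelium, and both organs are rich in endothelium, smooth muscle, pericytes and fibroblasts. In the embryo, mesoderm next to the foregut contributes to the inflow region of the heart and to the mesenchyme of the lung. TBX5, GATA factors, NKX2 factors and hedgehog and BMP signals are known regulators there. GATA, NKX2, TEAD and MEF2 proteins bind short DNA motifs, which can be counted in the accessible sequence.

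All samples were labelled as female Domestic pig of the breed Crossbred pig, with 2 libraries per group. The groups were Heart, Lung, Kidney, Skeletal Muscle, Spleen and Liver on the birth day (day 0), and Liver at postnatal days 28 and 180. The ages are those of the labels, and the study's methods put the newborn pigs a day after birth. By the study's methods the newborn tissues came from the same 2 full-sib piglets, so tissue comparisons were not between different animals, and 2 sibs of a cross are a narrow sample of pigs. The deposited lists held 57126 to 133254 peaks per newborn tissue, each merged from both libraries, so the count of regions had no replicate error. Read depth is not given in the lists, but the study reports the reads of each library, which differed between libraries and tissues. The part of depth in the calls was not tested, and a missing peak is not a measured absence. The heart list had a promoter peak at 16 of 19 cardiomyocyte genes, among them TNNT2, MYL7, NPPA and PLN, and the lung list at 9 of 19. The lung list had one at 19 of 20 lung epithelium genes, among them SFTPC, SFTPB and NKX2-1, and the heart list at 6 of 20. SFTPC and NKX2-1 had none in heart and TNNT2 and MYL7 none in lung. The other newborn lists had such peaks too. Cardiomyocyte genes had them at 12 of 19 in kidney, 12 in skeletal muscle, 8 in spleen and 5 in liver. Lung epithelium genes had them at 10 of 20 in kidney, 11 in liver, 8 in spleen and 4 in skeletal muscle. In bulk tissue, a site open in few cells and a site weakly open in many cannot be told apart, and the part of cell mixture in the calls was not tested.

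Sequence is shown for leading regions of each kind and for regions that hold several of the motifs on which the comparisons turn. Each line is the 200 bases around the summit of the region's strongest peak in Sscrofa11.1 (RefSeq), forward strand, in lower case, and capitals mark each match to the GATA motif AGATAAG, the NKX2 motif TNAAGTG or the TEAD motif ACATTCC on either strand. Windows that touch untranslated exon sequence were left out. The regions at GJA1 and EPB41L3 led the promoter regions by the rank of strength described below, those at FREM2 and ANKDD1B led the other regions, and the region at GATA6 was a leading one at a gene of the lists described below, with a lower rank than several regions not shown. The regions at MEX3C, ZMIZ1, RDH10 and TBX5 were added after their values were seen: the windows at MEX3C and ZMIZ1 were the 2 of 1301 with all 3 motifs, the window at RDH10 was the strongest with exactly 2, and the region at TBX5 lay in the promoter of a cardiopulmonary transcription factor.
GJA1, upstream of the gene, chr1:41003047-41003246: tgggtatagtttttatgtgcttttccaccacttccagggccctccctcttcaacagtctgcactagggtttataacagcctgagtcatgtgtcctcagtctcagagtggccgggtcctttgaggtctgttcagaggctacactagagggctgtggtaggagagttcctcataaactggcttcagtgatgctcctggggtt
EPB41L3, promoter, chr6:101571370-101571569: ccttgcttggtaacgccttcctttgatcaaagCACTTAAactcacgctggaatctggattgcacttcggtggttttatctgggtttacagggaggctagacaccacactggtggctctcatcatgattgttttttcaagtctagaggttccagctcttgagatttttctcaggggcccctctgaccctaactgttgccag
FREM2, intron, chr11:13883775-13883974: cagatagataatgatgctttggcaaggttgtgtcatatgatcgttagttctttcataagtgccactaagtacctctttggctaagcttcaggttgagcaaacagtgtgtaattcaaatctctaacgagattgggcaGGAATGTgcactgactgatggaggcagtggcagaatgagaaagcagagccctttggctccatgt
ANKDD1B, exon, chr2:84655717-84655916: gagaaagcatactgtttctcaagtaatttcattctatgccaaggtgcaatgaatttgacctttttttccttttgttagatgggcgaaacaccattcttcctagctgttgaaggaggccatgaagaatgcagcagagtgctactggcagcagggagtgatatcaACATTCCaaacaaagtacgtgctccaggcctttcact
GATA6, intron, chr6:107302798-107302997: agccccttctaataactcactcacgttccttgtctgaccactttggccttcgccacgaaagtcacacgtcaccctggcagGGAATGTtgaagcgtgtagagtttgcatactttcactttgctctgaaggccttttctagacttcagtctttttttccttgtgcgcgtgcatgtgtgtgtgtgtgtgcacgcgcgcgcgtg
MEX3C, intergenic, chr1:100732038-100732237: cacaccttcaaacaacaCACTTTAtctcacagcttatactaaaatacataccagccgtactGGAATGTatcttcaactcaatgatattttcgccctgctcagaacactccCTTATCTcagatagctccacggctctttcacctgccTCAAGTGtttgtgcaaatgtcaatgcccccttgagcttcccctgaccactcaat
ZMIZ1, intergenic, chr14:81025584-81025783: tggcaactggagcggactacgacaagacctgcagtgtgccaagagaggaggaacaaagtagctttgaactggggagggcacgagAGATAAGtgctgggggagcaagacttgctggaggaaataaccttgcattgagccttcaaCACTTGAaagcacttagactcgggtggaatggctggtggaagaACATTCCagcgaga
RDH10, in an intron of STAU2, chr4:62412031-62412230: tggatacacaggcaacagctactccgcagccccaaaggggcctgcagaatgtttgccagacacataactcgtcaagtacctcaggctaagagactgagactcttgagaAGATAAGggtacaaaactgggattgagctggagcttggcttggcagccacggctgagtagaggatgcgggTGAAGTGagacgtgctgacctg
TBX5, promoter, chr14:37773988-37774187: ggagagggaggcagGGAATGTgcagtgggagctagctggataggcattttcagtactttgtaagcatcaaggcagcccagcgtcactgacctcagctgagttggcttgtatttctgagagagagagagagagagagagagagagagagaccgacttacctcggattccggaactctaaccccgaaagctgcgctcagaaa
The window at GJA1 held none of the 3 motifs. The window at MEX3C held 2 matches to the NKX2 motif beside 1 to GATA and 1 to TEAD.

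Heart and lung shared fewer private regions than most pairs of tissues. Of the 15 pairs of newborn tissues, heart and lung ranked 11 by the number of regions open in exactly those tissues. Kidney and liver shared the most (12168) and skeletal muscle and spleen the fewest (574), while heart and skeletal muscle shared 3289. The lists differ in length, and no test was made of these counts, which the rule itself sets.

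**Figure D1:**
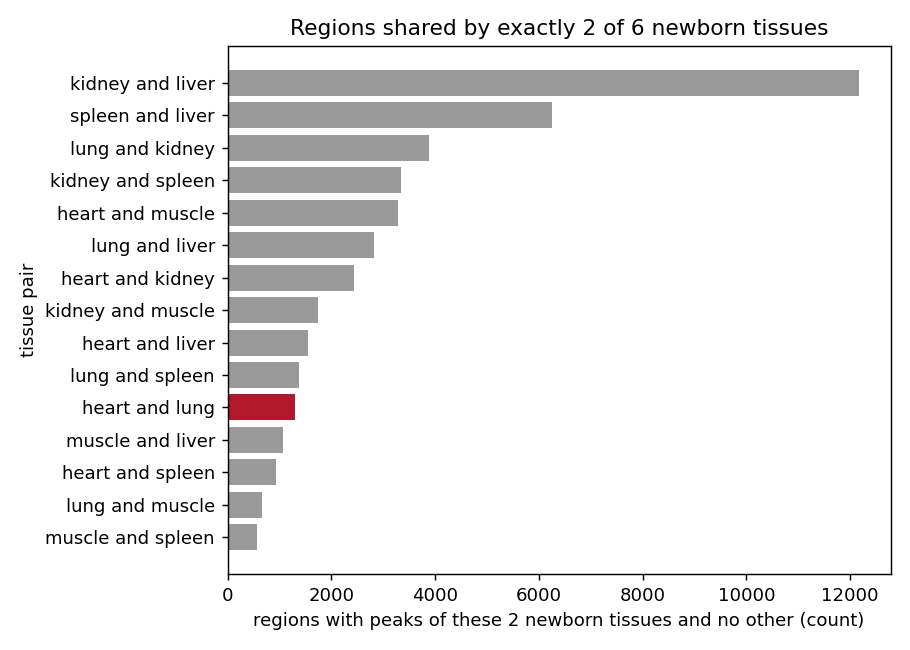
Bars give the number of union regions (horizontal axis, count) with peaks of exactly the named pair of newborn tissues, for all 15 pairs. The bar of heart and lung, in red, stands at 1301, between 574 for muscle and spleen and 12168 for kidney and liver.

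In 1259 regions there was 1 heart peak and 1 lung peak, which overlap by the rule. The heart and lung summits were a median of 65.0 bp apart, and in 841 regions (64.6%) they were within 100 bp. The regions were 142 to 1914 bp wide with a median of 616 bp, against 354 bp for regions open in heart alone and 410 bp for lung alone. Regions of heart and skeletal muscle alone (617 bp) and of lung and spleen alone (565 bp), which also merge peaks of 2 tissues, were of like width. Most lay far from one another: 75 had another such region within 10 kb and 233 within 50 kb. At the edge of the rule, 37 regions had a peak of an excluded tissue within 100 bp and 119 within 250 bp. On the other side of it, 2531 regions had heart, lung and exactly 1 further tissue (997 with kidney, 611 with muscle, 568 with liver and 355 with spleen). In 4 of these the further tissue covered less than 10% of the region.

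The regions were weaker than the typical peak of either tissue. Strength was the deposited −log10 p of the peak in each library, a value that grows with sequencing depth, so regions were ranked within a library. Each region's strongest peak, whose summit centred its motif window, was picked by −log10 p across lists without correction for depth. The part of that choice in the motif shares was not tested. Each region said below to be stronger in 1 tissue, or to lean to it, also had higher percentiles in both libraries of that tissue. In heart the regions ranged from 3.10 to 65.6 in replicate 1 (median 7.64) and from 3.06 to 68.7 in replicate 2 (median 8.11). In lung they ranged from 3.15 to 49.7 in replicate 1 (median 5.69) and from 2.94 to 198 in replicate 2 (median 17.2). The medians stood at percentiles 38.4 to 43.7 of the respective libraries, and 38.2% to 42.0% of the regions were above the median of all peaks of the library. Spearman's rho between the mean heart and the mean lung percentile was 0.222 over the 1301 regions, which share libraries and base composition. The reproducibility score of the lists, the irreproducible discovery rate (IDR), was 0.05 or lower in 122 regions for heart (9.38%, against 19.8% of all heart peaks), in 176 for lung (13.5%, against 20.5%) and in 23 for both.

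**Figure D2:**
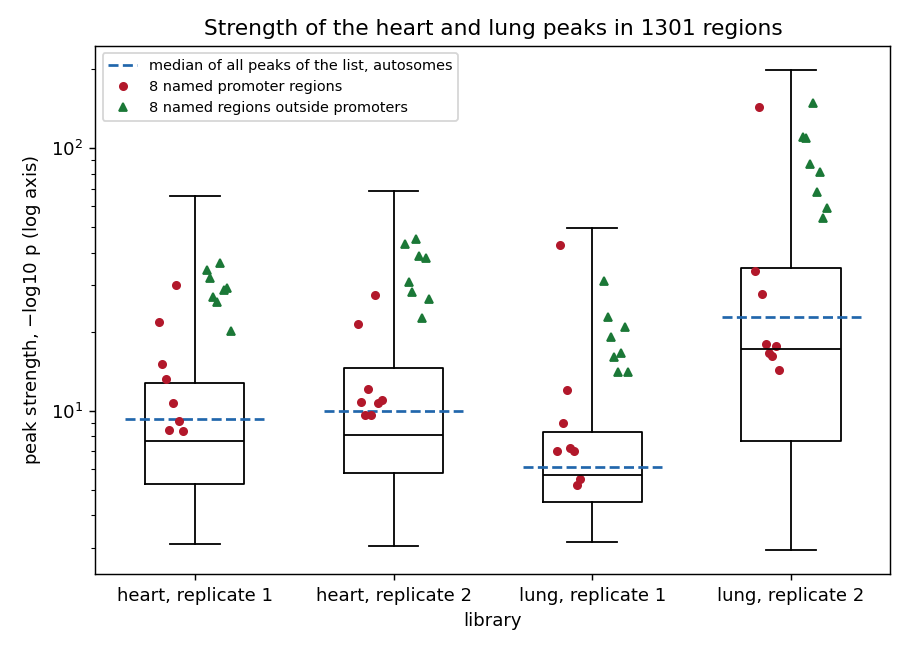
Boxes give the −log10 p (vertical log axis) of the 1301 regions in each of the 4 libraries, with the quartiles, the median and whiskers to the extremes, and dashed lines give the median of all autosomal peaks of the list. Circles are the 8 strongest promoter regions and triangles the 8 strongest regions outside promoters. In each library the median of the regions, such as 7.64 in heart replicate 1, lies under the dashed line, such as 9.32.

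Regions were ranked by the lowest of their 4 within-library percentiles, so that a high rank needed a strong peak in both heart libraries and both lung libraries. The leading promoter region, 1.02 kb upstream of the start of GJA1, which encodes a connexin of gap junctions in ventricular muscle and other cells, lay at chr1:41003018-41003261. Its −log10 p was 21.7 and 21.4 in the heart libraries and 7.0 and 33.9 in the lung libraries, and its lowest percentile was 58.8. All 4 values were above the median of their library. All 8 lists also had a peak over the GJA1 start itself, such as −0.39 to 0.10 kb in heart and −0.23 to 0.08 kb in newborn liver. The region was thus a separate peak from −1.13 to −0.89 kb, and the GJA1 promoter as a whole was not private to heart and lung. The promoter region of EPB41L3, a membrane skeleton protein, was stronger in lung, with 15.1 and 10.8 in heart and 42.7 and 144 in lung. The region of NEBL, which encodes the Z-disc protein nebulette of cardiac muscle, leaned to heart, with 30.2 and 27.5 in heart and 7.01 and 16.2 in lung. The remaining leading promoters were those of ST5, C1H14orf39, the histone methyltransferase gene KMT2C, LOC110259832 and PTGES, a prostaglandin E synthase, with lowest percentiles from 47.8 down to 35.8. None of the 8 had an IDR of 0.05 or lower in both tissues.

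The leading regions outside promoters had higher ranks, but they led a far larger pool, since 72 of the 1301 regions overlapped a promoter. Ranks were not compared between promoter regions and the others as a whole. The strongest of all, in an intron of FREM2, a gene for an extracellular matrix protein of epithelial basement membranes, lay at chr11:13883409-13884209, 109 kb from the nearest start site. Its −log10 p was 34.2 and 43.2 in heart and 31.3 and 110 in lung, with a lowest percentile of 88.7. An exonic region of ANKDD1B followed, with 32.0 and 30.9 in heart and 22.8 and 109 in lung. Its lowest percentile was 85.7, so both regions stood high in all 4 libraries. The others were in an intron of HERC4, a ubiquitin ligase gene, 264 kb upstream of FTMT, in an exon of NFRKB nearest to the start of TMEM45B, in an intron of EFNA5, which encodes an ephrin ligand of axon and vessel guidance, upstream of LOC102159784, and in an intron of RAD9B. Their lowest percentiles ran from 83.9 to 77.5, and their IDR was at most 0.0219 in either tissue. Of the 8, the region at RAD9B was the only one with a peak in adult liver and none had one in suckling liver.

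A few genes collected several regions. By nearest start site, 1079 protein-coding genes had at least 1 region and 916 of them exactly 1. TANC1 had 6, and CELF2, which encodes a splicing regulator, GJA1 and ZNF516 had 5 each. CAMK2D, the main calcium/calmodulin-dependent kinase of heart muscle, RYR2, the calcium release channel of the cardiac sarcoplasmic reticulum, EFNA5, the cadherin gene FAT1, NCKAP5 and LOC106510670 had 4 each. These counts were not adjusted for gene length or for the number of peaks near a gene. RYR2, for one, is 754.55 kb long, with 67 heart peaks and 21 lung peaks in and around it. At GJA1, 1 region was the promoter region and the other 4 lay 319, 374, 378 and 384 kb from the start, beyond the 3′ end of the gene. The strongest of the distal ones, at chr1:40683159-40683857, had 42.0 and 44.4 in heart and 6.83 and 36.0 in lung, and its window held the GATA motif. At TANC1 the regions differed widely in balance. The one at chr15:65965897-65966444 had 40.2 and 44.4 in heart and 5.59 and 8.48 in lung, whereas the one at chr15:65992754-65993585 had 7.88 and 4.98 in heart and 26.5 and 109 in lung.

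**Figure D3:**
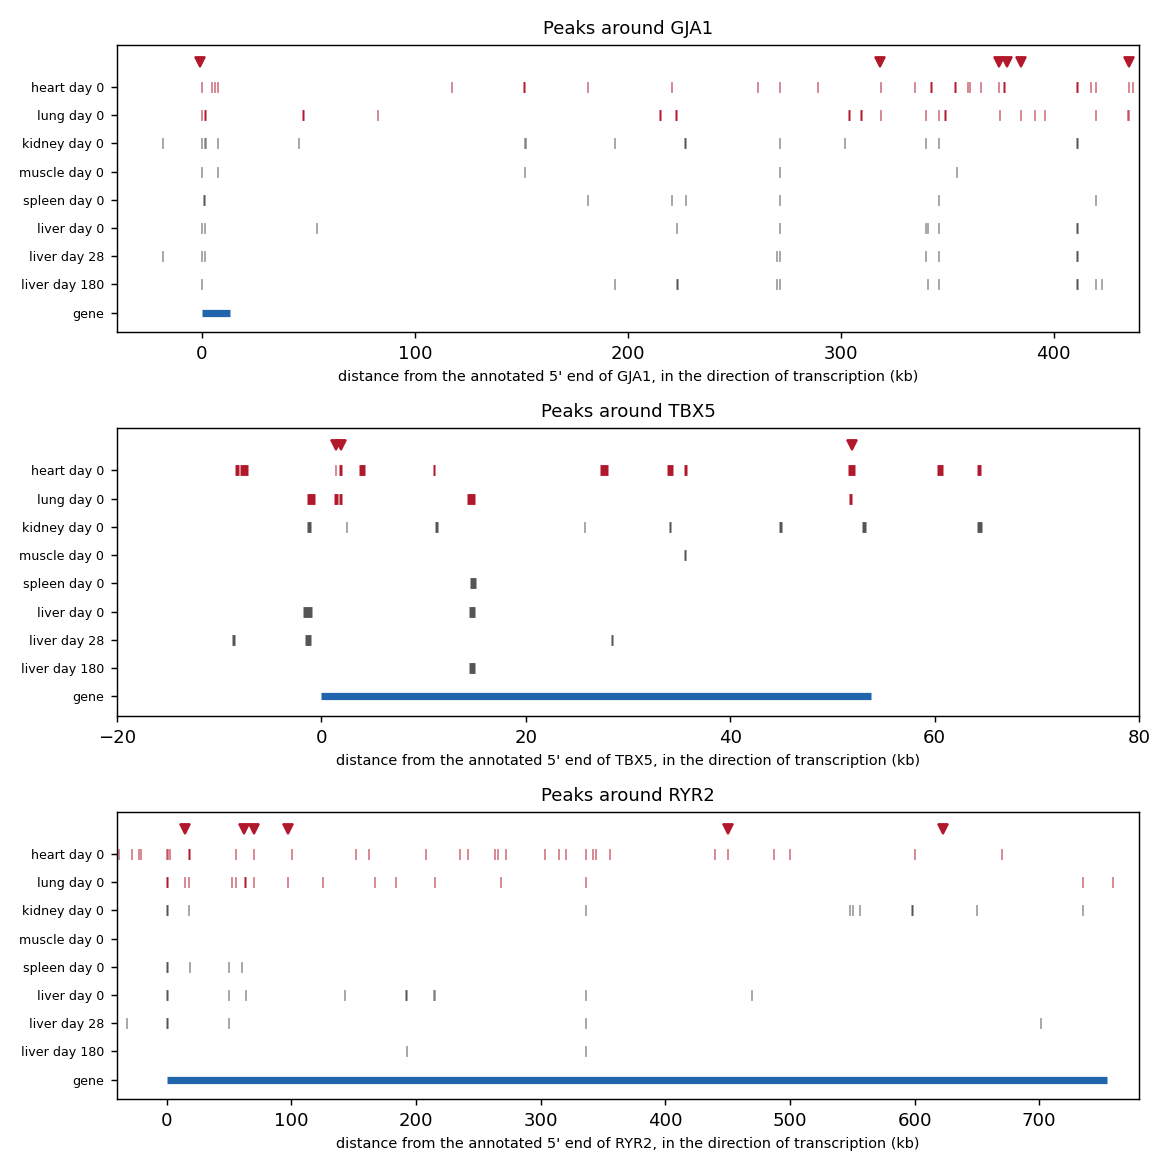
Marks show the peaks of all 8 lists (rows) around GJA1, TBX5 and RYR2 by distance from the annotated 5′ end of the gene in kb, the lowest bar of each panel is the gene, and triangles mark the regions with heart and lung peaks and no other newborn peak. GJA1 has 1 triangle just upstream and 4 of its own more than 300 kb away (1 more, at 435 kb, is nearest to another gene), TBX5 has 2 near its 5′ end and 1 in its last part, and RYR2 has 6 along the gene body.

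Most regions were distal. Of 1301, 72 (5.53%, 95% Wilson interval 4.42 to 6.91) overlapped a promoter, defined as 2.2 kb upstream to 500 bp downstream of a protein-coding start site, 117 (8.99%) an exon, 610 (46.9%) an intron and 499 (38.4%) intergenic sequence. The median distance to the nearest start was 44.1 kb, and 385 regions (29.6%) were over 100 kb away. Promoters were more frequent than among regions open in heart alone (2.80%, a difference of 2.74 percentage points, 95% Newcombe interval 1.58 to 4.14) or in lung alone (3.94%, 1.6 points, 0.441 to 3.01). With the excluded peaks widened by 250 bp the difference from lung alone was 0.802 points (−0.237 to 2.12), an interval that includes 0. With equal numbers of strongest peaks in every list, a setting in which 622 of the 1557 regions were among the 1301, the differences were 5.40 points (4.03 to 6.97) and 3.90 points (2.52 to 5.47). Both differences had the same sign in most of the 18 autosomes, 14 and 12 of them. Against regions of heart and skeletal muscle alone (5.17%) the difference was 0.365 points (−1.01 to 1.91), and against lung and spleen alone (6.69%) it was −1.15 points (−2.98 to 0.678), so neither interval lay on one side of 0. The former was 3.02 points (1.5 to 4.69) with equal numbers of strongest peaks. All union regions, many of them open in every tissue, had 9.22%. These intervals cover counting error only. The pairwise classes require peaks of both tissues and were wider than the classes of 1 tissue, and the part of width in the shares was not tested.

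In motif content the regions had more GATA matches than regions open in lung alone and more TEAD matches than regions open in heart alone. The GATA motif, bound by factors such as GATA4 and GATA6 in heart and GATA6 in lung epithelium, was found in 105 of 1301 windows of 200 bp (8.07%, 95% Wilson interval 6.71 to 9.68). Regions open in heart alone had 7.41%, in lung alone 5.01%, in heart and skeletal muscle alone 2.71% and in lung and spleen alone 3.05%, and all union regions 3.34%. The share exceeded that of lung alone by 3.06 percentage points (95% Newcombe interval 1.66 to 4.70), with the same sign in 15 of 18 autosomes, and that of heart and skeletal muscle alone by 5.36 points (3.87 to 7.05), in 18 of 18. From heart alone it differed by 0.660 points (−0.780 to 2.33), an interval that includes 0.

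The TEAD motif, bound by the nuclear partners of YAP and TAZ in Hippo signalling, was found in 116 windows (8.92%, 7.49 to 10.6). Regions of lung alone had 8.35%, a difference of 0.565 points (−0.928 to 2.29), and regions of heart alone 4.93%, a difference of 3.98 points (2.50 to 5.70) with the same sign in 16 of 18 autosomes. Heart and skeletal muscle alone had 4.96%, lung and spleen alone 5.23% and all union regions 4.0%. Thus the TEAD share stood above that of heart alone and both other pairs. The difference from lung alone was 1.57 points (−0.0184 to 3.39) without replicate 1 and 2.05 points (0.511 to 3.83) without replicate 2, so whether it lay on one side of 0 turned on 1 replicate. The NKX2 motif, bound by NKX2-5 in heart and NKX2-1 in lung epithelium, lay between the tissues. It was found in 236 windows (18.1%, 16.1 to 20.3), against 13.9% for heart alone (4.28 points higher, 2.18 to 6.55) and 21.0% for lung alone (2.89 points lower, as a difference of −2.89, −4.98 to −0.620). The difference from lung alone was −1.75 points (−3.94 to 0.607) without replicate 1 and −0.979 points (−3.10 to 1.32) without replicate 2, intervals that include 0. All union regions had 10.2%.

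At least 1 of these 3 motifs was present in 397 regions (30.5%), and at least 2 in 58 (4.46%, 3.46 to 5.72). The latter share was 2.04% for heart alone, 3.34% for lung alone, 0.973% for heart and skeletal muscle alone and 1.02% for all union regions. It exceeded heart alone by 2.42 points (1.39 to 3.70) and lung alone by 1.12 points (0.0870 to 2.41). The difference from lung alone was 0.915 points (−0.0275 to 2.13) without replicate 2 and 0.419 points (−0.480 to 1.53) with the same number of strongest peaks in every list, intervals that include 0. Matches to these 3 motifs sat near the summit more often than at the edge of the window: 176 NKX2 matches were within 50 bp of it and 93 at 50 to 100 bp, 78 and 43 for TEAD, and 63 and 46 for GATA. Of the motifs described below, AP1 (82 and 64) and the E-box (157 and 127) leaned the same way, and MEF2 (7 and 9) did not. Positions were not counted in the compared classes. Few of the regions had low IDR: with IDR at most 0.05 required in heart and lung, 23 of the 1301 remained. In them GATA exceeded lung alone by 9.49 points (−1.0 to 29.3) and TEAD exceeded heart alone by 3.26 points (−3.21 to 21.4), and both intervals include 0.

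MEF2 matches were fewer than in regions open in heart alone or in heart and skeletal muscle alone. MEF2, bound by factors that drive cardiac and skeletal muscle genes, was found in 16 windows (1.23%, 0.758 to 1.99), against 3.55% for heart alone (a difference of −2.32 points, −2.90 to −1.50) and 8.06% for heart and skeletal muscle alone (−6.83 points, −7.91 to −5.66, with the same sign in 18 of 18 autosomes). It was above the 0.314% of lung alone by 0.916 points (0.435 to 1.68), and all union regions had 0.928%. The E-box CAGCTG, which myogenic and other helix-loop-helix proteins bind, was in 19.4% of the regions and in 27.5% of those of heart and skeletal muscle alone (−8.04 points, −10.6 to −5.34), with 19.5% over all union regions. The forkhead motif TGTTTAC was in 3.46%, below lung alone (6.54%, −3.08 points, −4.03 to −1.89) and above heart alone (2.06%, 1.40 points, 0.491 to 2.56). In windows of 50 bp each side the excess over heart alone was 0.324 points (−0.201 to 1.12), an interval that includes 0. The AP1 motif TGANTCA was in 10.8%, above heart alone by 2.2 points (0.547 to 4.06) and below heart and skeletal muscle alone by a difference of −4.84 points (−6.86 to −2.67). The excess over heart alone was 0.548 points (−0.890 to 2.17) with equal numbers of strongest peaks. The T-box motif AGGTGTG was in 4.46%, and its interval against each of the 4 classes included 0, with 4.04% for heart alone and 5.59% for lung alone. The SPI1 motif GAGGAAGT, bound by a factor of myeloid and B cells, was in 1.15% against 5.52% for lung and spleen alone (−4.37 points, −5.78 to −3.05), while its intervals against the other 3 classes included 0. The HNF1 motif was in 0.231% against 1.05% of all union regions, and HNF4 in 0.154% against 0.675%. The 4 compared classes were low as well, with 0.243% to 0.509% for HNF1 and 0.0727% to 0.179% for HNF4, and each interval of the difference included 0. The CTCF motif was in 5 windows (0.384%), against 1.95% of all union regions and 0.0912% to 1.16% of the 4 classes. The CEBP motif TTGCNNAA was in 9.99%, beside 10.1% of all union regions, above heart alone by 2.47 points (0.880 to 4.28) and below lung alone by a difference of −3.10 points (−4.70 to −1.28), which was −1.28 points (−2.96 to 0.634) without replicate 2. The NFI motif CTTGGCA was in 8.53%, above lung alone (6.45%) by 2.09 points (0.637 to 3.77). Of the other motifs searched, RUNX was in 4.46% of the regions and 4.45% of all union regions, and STAT in 6.30% and 6.04%. ETS was in 1.69%, against 2.67% of all union regions. SOX was in 3.77% against 2.28%, KLF in 3.15% against 2.45%, MEIS in 3.84% against 2.86%, SRF in 1.69% against 1.16% and NR3C1 in 0.538% against 0.298%. A match is a description of the letters and not a measured binding site.

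**Figure D4:**
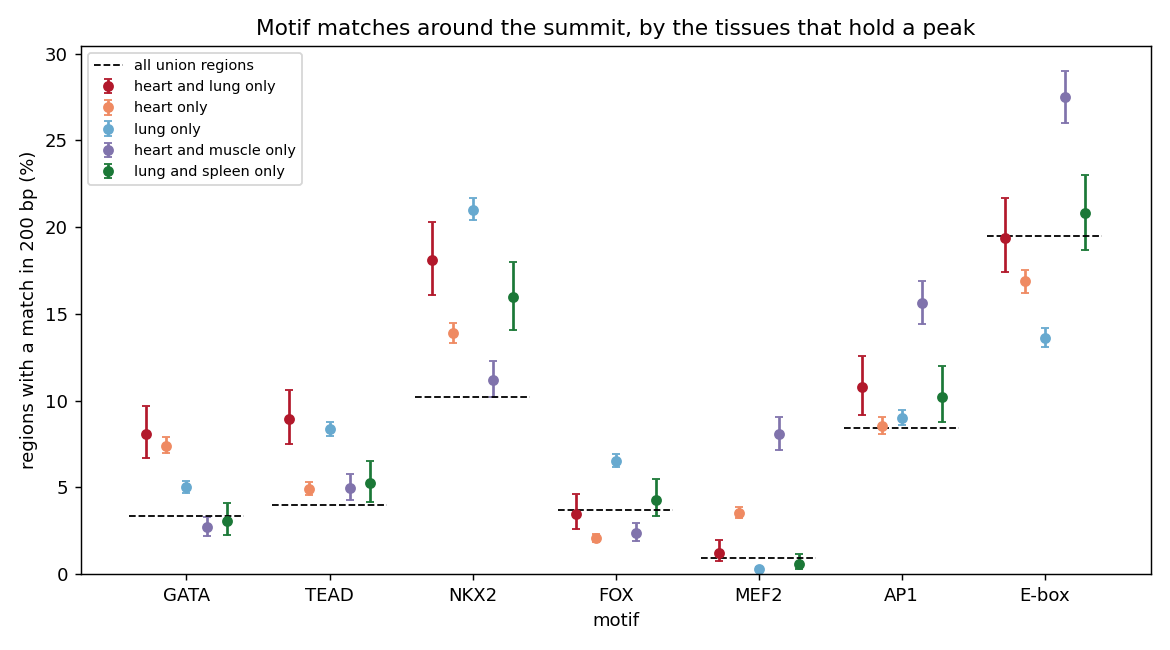
Points give the percent of regions with a match to each of 7 motifs in the 200 bp around the summit, with 95% Wilson intervals, for regions with peaks in heart and lung only, heart only, lung only, heart and muscle only, and lung and spleen only, and dashed lines give all union regions. For GATA the red point (8.07%) is beside heart only (7.41%), for TEAD (8.92%) beside lung only (8.35%), for NKX2 (18.1%) between the 2, and for MEF2 (1.23%) well under heart and muscle only (8.06%).

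Genes were then read by 11 lists of cell type markers and signalling genes. Of 18725 protein-coding genes on chromosomes 1 to 18, 5.66% had at least 1 of the regions in the gene body or within 20 kb of it, and 0.390% had one in a promoter. The list of cardiopulmonary transcription factors and signals had 7 of 25 genes with a region (28.0%) and 11 regions in all. Its genes had a median length of 32.0 kb against 20.7 kb for all genes, and the part of gene length in the count was not tested. The list also stood above all genes for heart alone (48.0% against 30.0%) and for lung alone (56.0% against 40.7%). It did so for heart and skeletal muscle alone too, but stood below all genes for lung and spleen alone. An excess over all genes was thus not particular to the regions described here. TBX5, a T-box factor of heart and lung mesenchyme, had 3 regions. The one at chr14:37773496-37773847 had −log10 p of 4.62 and 9.95 in heart and 4.52 and 5.83 in lung. The one at chr14:37773982-37774287, whose sequence is given above, had 13.8 and 4.93 in heart and 9.80 and 15.8 in lung, and the one in an exon at chr14:37823767-37824417 had 6.67 and 8.72 in heart and 3.73 and 8.90 in lung. All 3 were weak, with lowest percentiles of 12.1, 10.4 and 4.60. GATA6, a zinc finger factor of heart and lung development, had 2 intronic regions, and the stronger had 12.7 and 15.7 in heart and 14 and 42.5 in lung (lowest percentile 62.9). GATA5 had 2 regions 9.03 and 10.3 kb upstream, with lowest percentiles of 19.8 and 16.8. MEF2C, HAND1, the hedgehog receptor gene PTCH1 and the hedgehog effector gene GLI3, named here outside the naming rule, had 1 each. The count moved with the peaks taken: with the same number of strongest peaks in every list it was 4 of 25, with 7.12% of all genes. With the IDR held to at most 0.05 in all 6 newborn lists it was 0 of 25, with 0.854% of all genes. At that share a list of 25 genes would hold few genes or none in any case, so this 0 says little.

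Vascular signalling had 4 of 20 genes with a region. VEGFA, the main endothelial growth factor, had 1 region 10.3 kb upstream that was stronger in lung (22.2 and 92.2) than in heart (5.77 and 6.72). CALCRL, a receptor subunit for adrenomedullin, and NRP1, a VEGF co-receptor, had 2 each, and EDNRA, an endothelin receptor, had 1. BMP and TGF-beta signalling had 4 of 24, with a promoter region at SMAD3, the TGF-beta effector (4.20 and 5.62 in heart, 9.50 and 9.06 in lung), 2 intronic regions at the BMP receptor gene ACVR1, and 1 each at TGFBR1 and TGFBR3. The region in TGFBR3, a TGF-beta co-receptor, leaned to heart, with 32.8 and 48.9 against 4.46 and 6.75 in lung. Smooth muscle and pericyte genes had 3 of 18, namely TAGLN, MYOCD and ABCC9, and endothelium 2 of 26, namely FLT1, a VEGF receptor, with 2 regions and EMCN with 1. The shares were 16.7% for BMP and TGF-beta signalling and 16.7% for smooth muscle and pericyte genes. Endothelium, at 7.69%, was near the 5.66% of all genes. These counts also moved with the peaks taken. With equal numbers of strongest peaks BMP and TGF-beta signalling had 9 of 24 and endothelium 5 of 26, beside 7.12% of all genes. With the excluded peaks widened smooth muscle and pericyte genes had 1 of 18. With IDR at most 0.05 in heart and lung all 4 lists had 0, beside 0.0961% of all genes. At that share lists of this size would hold few genes or none in any case, so the zeros say little. The median gene length was 77.9 kb for BMP and TGF-beta signalling, 38.8 kb for vascular signalling, 37.5 kb for smooth muscle and pericyte genes and 24.9 kb for endothelium, and the part of gene length in these counts was not tested. For heart alone and lung alone the shares were 50.0% and 66.7% for BMP and TGF-beta signalling and 35.0% and 55.0% for vascular signalling. They were 55.6% and 55.6% for smooth muscle and pericyte genes and 38.5% and 76.9% for endothelium, against 30.0% and 40.7% of all genes.

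Markers of the principal cells of either organ had a region at close to the share of all protein-coding genes (5.66%), with 5.26% of cardiomyocyte genes and 5.0% of lung epithelium genes. Of 19 cardiomyocyte genes only RYR2 had a region, and it had 6, whereas 16 of 19 (84.2%) had a region open in heart alone, against 30.0% of all genes. RYR2 is 754.55 kb long, against a median of 10.7 kb for the list, and 67 heart peaks and 21 lung peaks lay in and around it. The part of gene length in its count was not tested. Of 20 lung epithelium genes only SCGB1A1, the club cell secretoglobin, had one (4.90 and 7.24 in heart, 11.5 and 15.6 in lung), whereas 16 of 20 (80%) had a region open in lung alone, against 40.7% of all genes. Of 18 fibroblast and matrix genes FBN1, the gene of fibrillin, had 1, and mesothelium, macrophage and Schwann cell and neuron genes had none (0 of 7, 0 of 10 and 0 of 6).

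**Figure D5:**
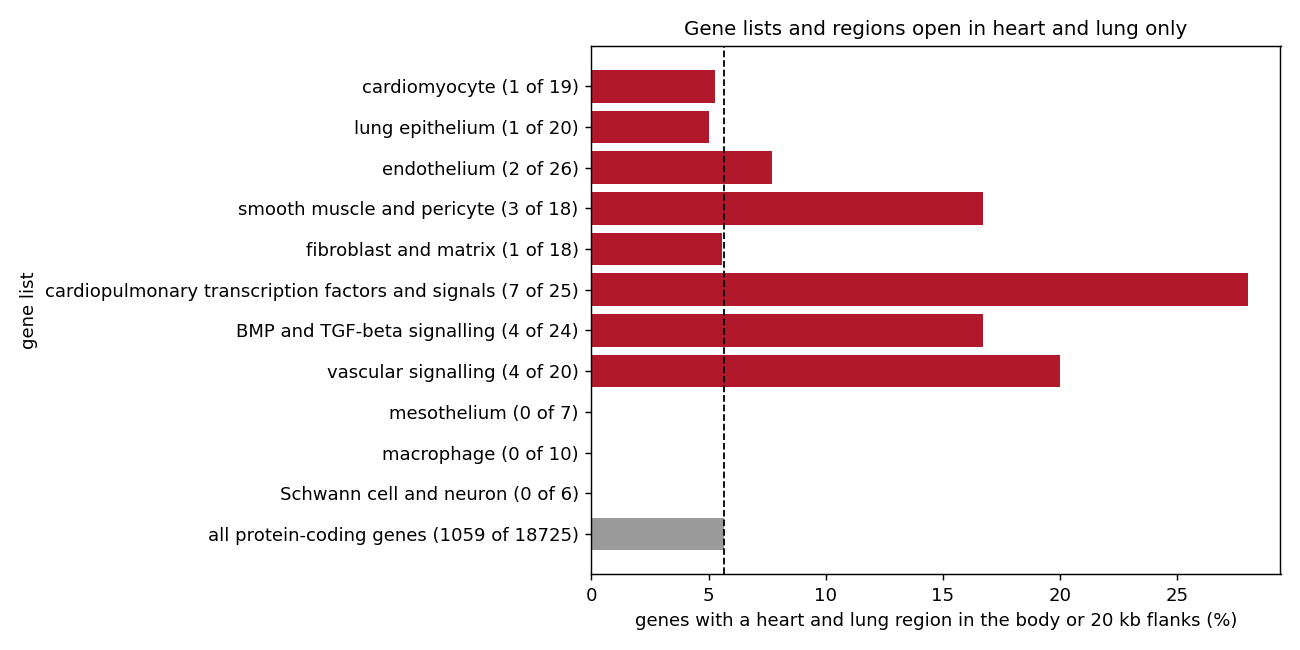
Bars give the percent of genes of each list with a heart and lung region in the gene body or 20 kb flanks, with the counts in the labels, and the dashed line and grey bar give all protein-coding genes (5.66%). Cardiopulmonary transcription factors and signals stand at 28.0%, vascular signalling at 20% and cardiomyocyte genes at 5.26%.

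Liver at later ages, which played no part in the choice, had few peaks at these regions. A peak of suckling liver (day 28) overlapped 141 regions (10.8%, 9.26 to 12.6), against 42.0% of all union regions, and a peak of adult liver (day 180) 120 regions (9.22%, 7.77 to 10.9), against 34.1%. In 43 regions (3.31%) both ages had one. The union regions include those already open in newborn liver, which the rule left out here, so the compared classes are the nearer measure. The suckling share was above heart alone (6.76%) by 4.08 percentage points (95% Newcombe interval 2.44 to 5.93) and above lung alone (6.92%) by 3.92 points (2.30 to 5.76), each with the same sign in 17 of 18 autosomes. It was below lung and spleen alone (23.0%) by a difference of −12.1 points (−14.9 to −9.32), and against heart and skeletal muscle alone (9.12%) the difference was 1.72 points (−0.167 to 3.75). That last difference was 3.11 points (1.20 to 5.19) without replicate 2, 1.90 points (0.634 to 3.35) when 50% of a region had to be covered, and 13.2 points (10.5 to 15.8) with equal numbers of strongest peaks, intervals above 0. When 50% of a region had to be covered, the differences from heart alone and lung alone were 0.957 points (−0.179 to 2.34) and 0.894 points (−0.225 to 2.26), and their intervals then included 0. With equal numbers of strongest peaks they were larger, at 19 points (16.5 to 21.5) and 18.1 points (15.6 to 20.5). That setting kept 57126 of the 120012 newborn liver peaks, so a region with a weaker newborn liver peak could enter. Of its 1557 regions, 935 were not among the regions described here. Its differences, the 13.2 points included, thus mostly describe other regions, and the part of weaker newborn liver peaks in them was not tested. Among the named genes, TANC1 had a region at chr15:66028760-66029117 with a peak in both later livers, while the regions at GJA1, FREM2 and GATA6 had none in either.

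The regions were spread over all 18 autosomes, from 24 on each of chromosomes 12 and 18 to 159 on chromosome 1. As a share of the union regions of a chromosome they ranged from 0.252% (95% Wilson interval 0.169 to 0.375) on chromosome 12 to 0.740% (0.565 to 0.969) on chromosome 11. These are the lowest and highest of 18 chromosomes, picked by their values, so the gap between their intervals is no test of a difference.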

How the data were processed

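ATAC-seq libraries of 8 groups (2 per group) were analysed from the peak lists, 1 per group. The authors mapped reads to Sscrofa11.1, removed mitochondrial, low-quality and duplicate reads, called peaks per library with MACS2 at a q-value of 0.05 and matched the replicates by IDR. Per the labels the tools included Bowtie2, SAMtools 1.3.1, MACS2 and deepTools. The deposited values used here were the −log10 p of each peak in each replicate and a score, the −log10 of the IDR, for the merged peak. The −log10 p depends on depth, so strength was ranked within a library, and read counts were not analysed here.

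Regions were merged on an overlap of at least 1 bp and annotated with RefSeq annotation release 106 on 18725 protein-coding genes. Motifs (22) were searched on both strands within 100 bp of the summit of the strongest peak, picked by −log10 p across lists without correction for depth. MEF2, SRF, CTCF and NR3C1 motifs are named only. Shares carry 95% Wilson intervals and differences of shares 95% Newcombe intervals, which cover counting error only, and no p-value was computed. Regions are not replicates of a tissue. The comparison classes were regions open in heart only, lung only, heart and muscle only, and lung and spleen only.

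Named were the 8 promoter and the 8 other regions with the highest lowest percentile, the 5 genes with most regions by nearest start site (10 with ties), and, per gene list, each gene with a promoter region and otherwise the 3 genes with most. The sequence of 1 region chosen by the rule is not reported here. The regions, lists and motifs were chosen with earlier results of these data known. Alternatives changed the IDR limit, list length, merging, margin, replicate, promoter width, gene set, overlap, window, motif letters, GC content and gene assignment. Functions were tested on simulated peak lists. Python 3.11.15, numpy 2.4.6, pandas 2.3.3, scipy 1.17.1, pysam 0.24.0 and matplotlib 3.10.9 were used.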

Additional observations from a re-analysis of the deposited data

Results flagged for a closer look

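The rule for the regions kept to chromosomes 1 to 18, so the remaining sequences of the lists stood outside the report. By the same overlaps, 18 of 6096 union regions on chromosome X and 21 of 3114 on unplaced scaffolds had peaks in newborn heart and lung and in no other newborn tissue. Chromosome Y had 0 of 37. On chromosomes 1 to 18 the count was 1301 of 243693 (0.534%). The counts on chromosome X and the scaffolds were drawn out because no comparison used those sequences. They were not tested against the autosomes or against one another.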

How the results depend on the processing

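The number of regions was 1251 to 1285 without either replicate, 1182 with the excluded peaks widened by 250 bp, 1300 with touching intervals merged and 1557 with equal numbers of strongest peaks. It was 23 with IDR at most 0.05 in heart and lung, all of them among the 1301. With that limit in all 6 newborn lists it was 142, of which 119 were not among the 1301, since weak peaks of the excluded tissues no longer counted. With equal numbers of peaks 935 of the 1557 were not among the 1301, so both settings mostly describe other regions. All 8 named regions outside promoters remained under all 7 alternative rules, while the 8 named promoter regions were lost under both IDR limits and 7 remained with the excluded peaks widened. Of 632 recomputed differences of shares, 509 kept their direction and side of 0 or stayed without a call, 73 lost and 13 gained a call and 37 reversed. A reversal here means a change of sign of the point value, also where the new interval included 0.

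The GATA excess over lung only, the TEAD and NKX2 excess over heart only and the MEF2 deficit to heart only held under every alternative except the 23 regions and the reversed motif letters. The 23 regions gave 9.49 points for GATA (−1.0 to 29.3), 3.26 for TEAD and −4.96 for MEF2, and NKX2 kept its call there. The reversed letters, a control for base composition, gave −0.333 points for GATA, 0.608 for TEAD, 0.0312 for NKX2 and 0.0600 for MEF2.

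Other reversals with the reversed letters were GATA against heart and muscle only (−1.28), MEF2 against the same (0.0786), TEAD against lung and spleen only (−0.101), AP1 against heart and muscle only (0.822) and lung only (−0.355), E-box against heart only (−0.148) and lung only (−0.0773), FOX against lung only (0.434), CEBP against heart only (−0.0492), NFI and SPI1 against lung and spleen only (−0.548 and 0.310), and at least 2 of GATA, NKX2 and TEAD against heart only (−0.00197), lung only (−0.148) and heart and muscle only (−0.0253). With the 23 regions they were promoters against heart only (−2.39) and lung only (−3.78), suckling liver against heart only (−0.900) and lung only (−0.120), adult liver against heart only (−0.423) and lung only (−0.709), AP1 against lung only (−2.20), FOX against heart only (−2.29) and heart and muscle only (−2.23), MEF2 against lung only (−0.295), NKX2 against lung only (7.42), TEAD against lung and spleen only (−1.70), NFI against heart only (18.3) and heart and muscle only (18.5), and at least 2 of the 3 motifs against lung only (−2.03) and lung and spleen only (−1.25). With the 142 regions they were AP1 against lung only (−0.854), E-box against heart only (−2.43), NFI against heart and muscle only (1.06) and adult liver against heart and muscle only (12.5), the last also with equal numbers of peaks (5.97). With the 23 regions the intervals of these reversals included 0, so the calls were lost, except for NFI (3.34 to 38.8 and 3.48 to 39.1). With the 142 regions they included 0 except for adult liver (3.91 to 21.3, and 3.57 to 8.45 with equal numbers of peaks). The reversed letters are other sequences than the motifs, so a changed sign there is no opposite result for a motif. The cause was not tested.

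The suckling liver differences lost their call with 50% of the region covered (0.957 against heart only, 0.894 against lung only) and with IDR at most 0.05 in later liver (0.334 and 0.325). The cardiopulmonary list had 0 genes under both IDR limits, where 0.854% (all 6 newborn lists) and 0.0961% (heart and lung) of all genes had a region. At those shares a list of 25 genes would hold few genes or none in any case, so the zeros say little. The list had 4 genes with equal numbers of peaks (7.12% of all genes) and 1 by promoter only (0.390%). No paired analysis was possible because no result comes from a test over samples. The values without 1 replicate use the intervals of the other pig alone, but only peaks matched between both pigs are listed.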
